A study of Mus musculus with 6 samples.

Results

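A set of 10 transcription factors that mark the boundary between stomach and intestine was read from RNA sequencing of mouse pylorus, the outlet of the stomach into the duodenum. They were chosen by gene symbol, and each of the 10 matched 1 row of the 39179 in the deposited table. The intestinal factors are Cdx1, Cdx2 and Isx, the factors of the antral and pyloric epithelium are Pdx1, Nkx6-3 and Onecut2, and the factors of the gastric and pyloric mesenchyme are Barx1, Nkx2-5, Nkx3-2 and Six2. The study compared 3 libraries labelled Sox2 KO, here KO1 to KO3, with 3 labelled Sox2 WT, here WT1 to WT3. The labels do not say that each library came from its own mouse. Sex-linked genes, given below, show that WT1 came from a different mouse than WT2 and WT3. The p-values cover the spread between libraries, which may be technical in part, and within Sox2 KO in whole. Sox2 KO mice were Rosa26CreER; Sox2 fl/fl, with a tamoxifen-activated Cre recombinase at the ubiquitously active Rosa26 locus, and Sox2 WT mice were Rosa26WT; Sox2 fl/fl, with the same floxed alleles and no Cre. All mice, of strain C57BL/6 x 129 mixed, received tamoxifen at 8 weeks of age, and tissue was taken 2 weeks later; the label for age reads 8 weeks and the series text 10 weeks. The muscle layer was peeled off and RNA came from the epithelium with its mesenchyme, so each library mixes both compartments.

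Along the gut tube, regional identity is set by homeodomain transcription factors expressed in the epithelium and in the mesenchyme beneath it. CDX2 is the master regulator of intestinal epithelium and is normally absent from the stomach lining, where its appearance accompanies intestinal metaplasia, while SOX2 is the corresponding factor of foregut and stomach. In the distal stomach PDX1 and NKX6-3 take part in forming the gastrin cells of the antrum, and in the mesenchyme BARX1 specifies stomach by restraining Wnt signalling, with NKX2-5, NKX3-2 and SIX2 marking its caudal end at the pyloric sphincter.

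Levels are RPKM, read counts scaled by gene length and library size, as deposited. The reads behind them were recovered as whole numbers and summed to between 22052168 and 31484874 per library. Sox2 itself, the targeted gene, which overlaps Sox2ot, was at 11.1, 9.03 and 10.9 RPKM in WT1, WT2 and WT3 and 0.342, 0.210 and 0.420 RPKM in KO1, KO2 and KO3 (log2 fold change -3.72, limma adjusted p = 2.9e-04). Antral markers were abundant, with Gast, the gastrin gene, at a mean of 4372 RPKM. Genes of the acid-secreting (oxyntic) mucosa were present too and differed within groups: the summed RPKM of 6 of them was 1939.7, 6831 and 863 in WT1, WT2 and WT3, and 5150.3, 6935 and 2791 in KO1, KO2 and KO3. Xist was above the Y-linked gene Ddx3y in WT2 and WT3 and below it in the other 4 libraries. Sex therefore differed along with genotype, and a comparison within males rests on WT1.

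The levels of the 10 factors spanned from almost no reads to strong expression. Nkx6-3 was the highest, with a Sox2 WT mean of 75.5 ± 9.05 RPKM (SD, n = 3). Barx1 followed at 14.5 ± 1.49 RPKM and Pdx1 at 13.6 ± 3.24 RPKM (SD, n = 3 each), and these neighbours overlapped in range. Six2 came next at 1.57 ± 0.359 RPKM (SD, n = 3), apart from the genes above and below it. Nkx3-2, Onecut2 and Cdx2 had Sox2 WT means of 0.561 ± 0.290, 0.532 ± 0.425 and 0.177 ± 0.141 RPKM (SD, n = 3 each), each overlapping the next in order, and Cdx2 overlapped Nkx2-5 at 0.113 ± 0.0910 RPKM. Isx and Cdx1 were last, at 0.0315 ± 0.0273 and 0.00748 ± 0.0130 RPKM (SD, n = 3 each). In Sox2 KO, Cdx2 stood in the fifth place and Isx in the eighth, within a run of genes from Cdx2 to Cdx1 in which each range overlapped the next.

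**Figure D1:**
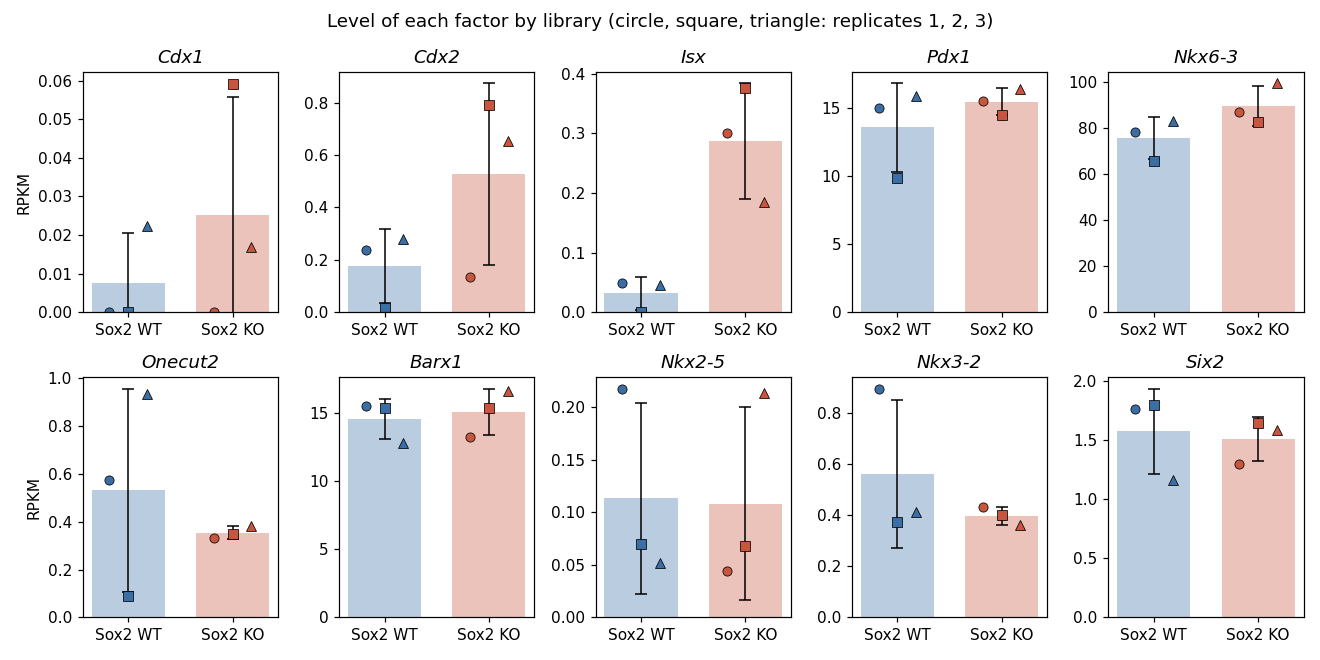
RPKM of each factor (vertical axes, from 0, a different scale per gene) in Sox2 WT and Sox2 KO; bars are means, error bars 1 SD over 3 libraries (drawn no lower than 0), and symbols the single libraries. Isx is the gene whose groups do not overlap, with 0 to 0.0485 RPKM in Sox2 WT and 0.184 to 0.376 RPKM in Sox2 KO.

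None of the 10 factors passed the test between Sox2 KO and Sox2 WT. In limma, over the 14045 genes with a mean of at least 0.5 RPKM, 4 genes passed an adjusted p of 0.05 (0.0285% of those tested). The 4 members past that filter, Nkx6-3, Pdx1, Barx1 and Six2, were not among them, and 0 of these 4 reached an unadjusted p under 0.05, which 3.15% of tested genes did. The other 6 members lay under the filter and were fitted without it, over 23494 genes, of which 0.0128% passed. Of these 6 members 0 passed, and Isx alone reached an unadjusted p under 0.05, as did 3.87% of genes in that fit. The 2 groups of libraries did not overlap for 1 of the 10 members, Isx, against 7.5% of the 23494 genes in either direction and 3.89% with Sox2 KO above Sox2 WT. Differences below subtract Sox2 WT from Sox2 KO on the scale log2(RPKM + 0.5), which understates changes of genes at low levels.

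**Figure D2:**
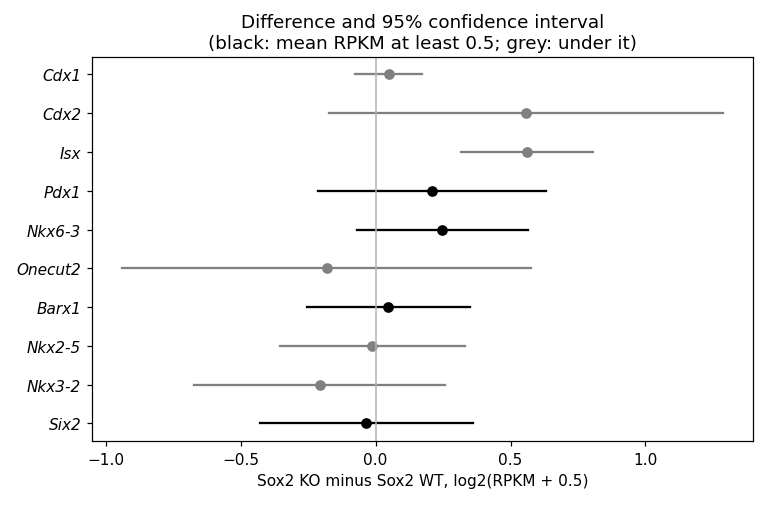
Difference between Sox2 KO and Sox2 WT for each factor on the log2(RPKM + 0.5) scale (horizontal axis), with points for the limma estimate and lines for its 95% confidence interval, unadjusted for the number of genes. The intervals of 9 genes include 0, and that of Isx runs from 0.32 to 0.81.

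Among the intestinal factors, Isx had more reads in each Sox2 KO library than in any Sox2 WT library. ISX is an intestine-specific homeodomain repressor that limits the uptake and cleavage of beta-carotene, and its gene is annotated on GRCm38 (chromosome 8, 74873173 to 74893506, plus strand). It was at 0.0485, 0 and 0.0459 RPKM in WT1, WT2 and WT3, from 3, 0 and 3 reads, and 0.302, 0.376 and 0.184 RPKM in KO1, KO2 and KO3, from 23, 28 and 16 reads. In WT2, the library with 0 reads, 3 reads would have been 0.0418 RPKM. The ratio of the group means was 9.13, and 6.08 without WT2. The log2 difference was 0.56 (SE 0.101, limma unadjusted p = 0.00126, adjusted p = 0.553), and 3.32 in limma's voom on the recovered reads (adjusted p = 0.444). With a pseudocount of 0.1 in place of 0.5 it was 1.55 (limma adjusted p = 0.434). Over all alternatives the limma adjusted p ran from 0.248 to 1.00. The exact two-sided permutation test gave p = 0.1, the smallest that 3 against 3 allow. Against the lone male Sox2 WT library, WT1, through a sex covariate, the difference was 0.51 (limma adjusted p = 0.804).

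Cdx2 varied within both groups. Its gene (chromosome 5, 147300805 to 147307270, minus strand) lies 25.0 kb from Pdx1, and both belong to the ParaHox cluster of homeobox genes. The values of Cdx2 were 0.238, 0.0158 and 0.278 RPKM in WT1, WT2 and WT3, from 13, 1 and 16 reads, and 0.134, 0.792 and 0.653 RPKM in KO1, KO2 and KO3, from 9, 52 and 50 reads. KO2 and KO3 were above all Sox2 WT libraries, while KO1 was below WT1 and WT3. Between the groups the log2 difference was 0.56 (SE 0.302, 95% interval -0.17 to 1.29, limma adjusted p = 1.00). Without KO1 it was 0.87 (unadjusted p = 0.00689, limma adjusted p = 0.817). Voom on recovered reads gave 1.80 (adjusted p = 1.00), and the limma fit 0.36 without KO2 and 0.37 without WT2.

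The stretches upstream of Isx and Cdx2 are shown because these 2 members had the largest ratios of group means among members with at least 10 reads in some library. Each is the 250 bases before the RefSeq start on GRCm38.p6, 5′ to 3′ on the strand of the gene, at chr8:74872924-74873173 (plus strand) for Isx and chr5:147307250-147307499 (minus strand) for Cdx2.
Isx: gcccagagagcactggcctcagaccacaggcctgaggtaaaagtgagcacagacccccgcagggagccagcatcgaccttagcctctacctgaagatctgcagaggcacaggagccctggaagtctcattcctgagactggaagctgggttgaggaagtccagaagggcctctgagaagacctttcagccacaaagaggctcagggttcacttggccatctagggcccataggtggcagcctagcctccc
Cdx2: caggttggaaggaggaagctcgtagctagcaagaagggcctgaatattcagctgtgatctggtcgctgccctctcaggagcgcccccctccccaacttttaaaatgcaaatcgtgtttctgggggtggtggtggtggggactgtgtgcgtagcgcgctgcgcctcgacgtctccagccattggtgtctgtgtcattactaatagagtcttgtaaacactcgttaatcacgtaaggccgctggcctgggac
On both strands, the CDX letters TTTATG and the SOX letters ACAATG were searched in the windows of the 7 members in the RefSeq table, and neither was in any of the 7, so no base is in capitals. Of 32851 such windows, 10.8% held the CDX letters and 10.7% the SOX letters.

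Cdx1, the other intestinal caudal gene (chromosome 18, 61018862 to 61036199, minus strand), was close to undetected. Its reads numbered 0, 0 and 1 in WT1, WT2 and WT3 and 0, 3 and 1 in KO1, KO2 and KO3, at most 0.0591 RPKM. No difference was detectable at this depth. The reads of Cdx1, Cdx2 and Isx together numbered 16, 1 and 20 in WT1, WT2 and WT3 and 32, 83 and 67 in KO1, KO2 and KO3.

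The genes of the intestinal program that were tested showed no called change beside these factors. Of 23 intestinal regulators and textbook targets of CDX2, 12 were tested and 0 passed in limma in either direction (0 with voom, and 0 at an unadjusted p under 0.05), with a median log2 fold change of -0.08 against 0.02 over all tested genes. Hnf4a, a nuclear receptor of gut epithelium, was at a mean of 58.2 RPKM, with a log2 fold change of -0.05 (SE 0.165). Muc2, the goblet cell mucin and a CDX2 target, lay under the filter at 0.308, 0.301 and 0.389 RPKM in WT1, WT2 and WT3 and 0.333, 0.887 and 0.497 RPKM in KO1, KO2 and KO3. Cdh17, an intestinal cadherin and CDX2 target, was at 0.00912, 0 and 0.00863 RPKM in WT1, WT2 and WT3 and 0, 0.114 and 0.0584 RPKM in KO1, KO2 and KO3. For both genes, as for Cdx2, KO2 and KO3 were the highest 2 of the 6 libraries. KO1 lay within or below the Sox2 WT values. Not every gene of the list had that order. Guca2a was highest in WT2 (0.241 RPKM), and Lgals4, Vil1 and Krt20 were highest in WT3 (1058, 92.2 and 682 RPKM). Slc26a3, under the filter, was at 0.00794, 0.0547 and 0.0451 RPKM in WT1, WT2 and WT3. It was at 0.0644, 0.0660 and 0.0961 RPKM in KO1, KO2 and KO3, above every Sox2 WT library. Gata4, at a mean of 58.4 RPKM, was lower in every Sox2 KO library than in any Sox2 WT library. Among all genes fitted without the filter, 7.5% did not overlap. In that fit 20 genes of the list were tested and 0 passed. Car1, Mep1a and Sis were listed at 0 in all 6 libraries. The 2 known ISX targets in the table did not pass. The log2 fold change of Scarb1, a lipid and carotenoid receptor, was 0.05 (SE 0.110); that of Bcmo1, which cleaves beta-carotene, was 0.23 (SE 0.158).

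Duodenal tissue could be included in a piece of pylorus, so markers of the duodenum were set beside the intestinal factors. Their summed level over 14 genes overlapped, at 556 to 775 RPKM in Sox2 WT and 481 to 665 RPKM in Sox2 KO, and 0 of the 10 tested passed. Sis and Mep1a, which define mature small intestinal enterocytes, were listed at 0 in every library, and Lct was at most 0.0168 RPKM. Other genes of the list were expressed, among them Rbp2, Apoa1, Dmbt1 and Vil1, at means of 235, 150, 83.7 and 77.8 RPKM. These genes made up most of the sum, so its overlap between the groups does not measure the share of duodenal tissue. The fatty acid binding protein gene Fabp1 was at 1.36, 5.78 and 1.64 RPKM in WT1, WT2 and WT3 and 5.75, 8.96 and 4.40 RPKM in KO1, KO2 and KO3. The alkaline phosphatase gene Alpi was at 8.73, 6.27 and 17.6 RPKM in WT1, WT2 and WT3 and 2.25, 6.76 and 5.30 RPKM in KO1, KO2 and KO3. These 2 genes, the members of the list with an unadjusted p under 0.05, had log2 fold changes of 1.18 and -1.10, and the part of duodenal tissue in the reads of Isx and Cdx2 was not tested. In bulk RNA, fewer cells of a type and less RNA per cell cannot be told apart.

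**Figure D3:**
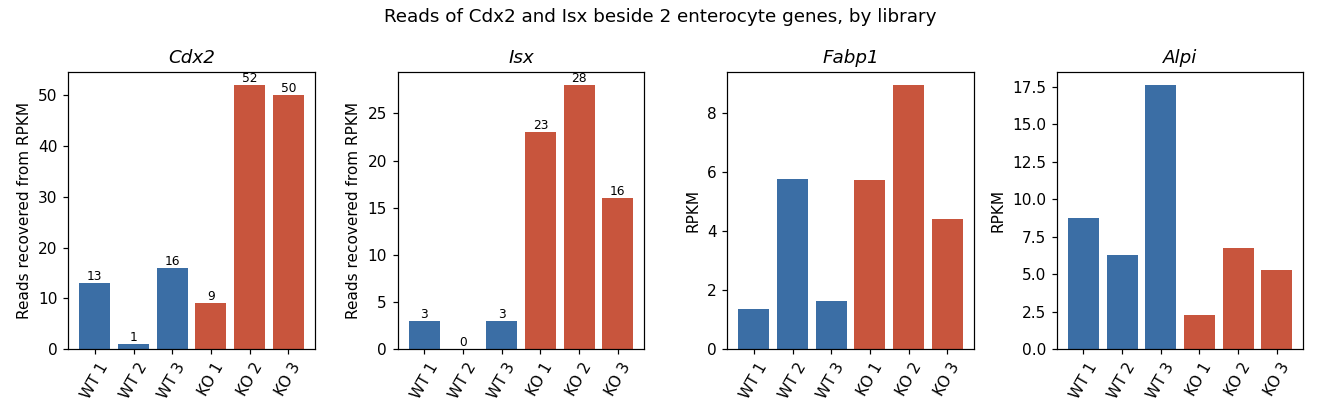
Reads of Cdx2 and Isx recovered from the RPKM, and RPKM of the enterocyte genes Fabp1 and Alpi, by library (bars from 0; blue Sox2 WT, red Sox2 KO). Isx has 0 to 3 reads in Sox2 WT and 16 to 28 in Sox2 KO, while Fabp1 overlaps between the groups and is lowest in WT1.

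Of the antral epithelial factors, Nkx6-3 and Pdx1 were well expressed in every library. Nkx6-3, a homeodomain factor of gastrin cells (chromosome 8, 23153269 to 23158948, plus strand), was at 78.3, 65.4 and 82.8 RPKM in WT1, WT2 and WT3 and 87.0, 82.4 and 99.3 RPKM in KO1, KO2 and KO3. The ranges overlapped only in that WT3 was above KO2. Its log2 difference was 0.25 (SE 0.136, 95% interval -0.07 to 0.57, limma adjusted p = 1.00).

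Pdx1, known for pancreas, duodenum and antrum (chromosome 5, 147269959 to 147275848, plus strand), overlaps the antisense gene Plut, so that reads of the pair cannot be told apart without strand. It was at 15.0, 9.85 and 15.9 RPKM in WT1, WT2 and WT3 and 15.5, 14.5 and 16.4 RPKM in KO1, KO2 and KO3. The lowest library was WT2, and the other 5 lay close together. For Pdx1 the log2 difference was 0.21 (SE 0.181, 95% interval -0.21 to 0.63, limma adjusted p = 1.00), and 0.0035 without WT2. The summed level of 10 markers of pancreas, where Pdx1 is also active, was 4.44 to 17.5 RPKM in Sox2 WT and 7.24 to 12.2 RPKM in Sox2 KO, most of it from the lipase gene Cel (mean 6.07 RPKM). Among those markers, the acinar enzyme gene Cpa1 was listed at 0 in all 6 libraries, and the insulin gene Ins2 was at most 0.0954 RPKM. WT2, the lowest for Pdx1, had the highest pancreas sum; the part of pancreas in Pdx1 was not tested.

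Onecut2, a cut-homeodomain factor of gut epithelium (chromosome 18, 64340020 to 64400987, plus strand), was the most variable of the antral factors in Sox2 WT. It was at 0.575, 0.0879 and 0.934 RPKM in WT1, WT2 and WT3, from 186, 33 and 319 reads, and 0.331, 0.347 and 0.383 RPKM in KO1, KO2 and KO3, from 132, 135 and 174 reads. The 3 Sox2 KO libraries all fell within the span of the Sox2 WT libraries. The log2 difference of -0.18 (SE 0.313, 95% interval -0.94 to 0.58, limma adjusted p = 1.00) turned to 0.10 without WT3.

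WT2 was the lowest of all 6 libraries for Pdx1, Nkx6-3, Onecut2 and Cdx2, and its oxyntic marker sum of 6831 RPKM was the highest in its group. The sum of 6935 RPKM in KO2 came mostly from the chitinase gene Chia, at 4857 RPKM there and 3239 RPKM in WT2. Atp4a and Atp4b, the subunits of the gastric proton pump, were higher in WT2, at 961 and 1656 RPKM, than in KO2, at 526 and 815 RPKM. WT3, with the lowest oxyntic sum, had the highest Onecut2. The part of oxyntic mucosa in these levels was not tested.

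**Figure D4:**
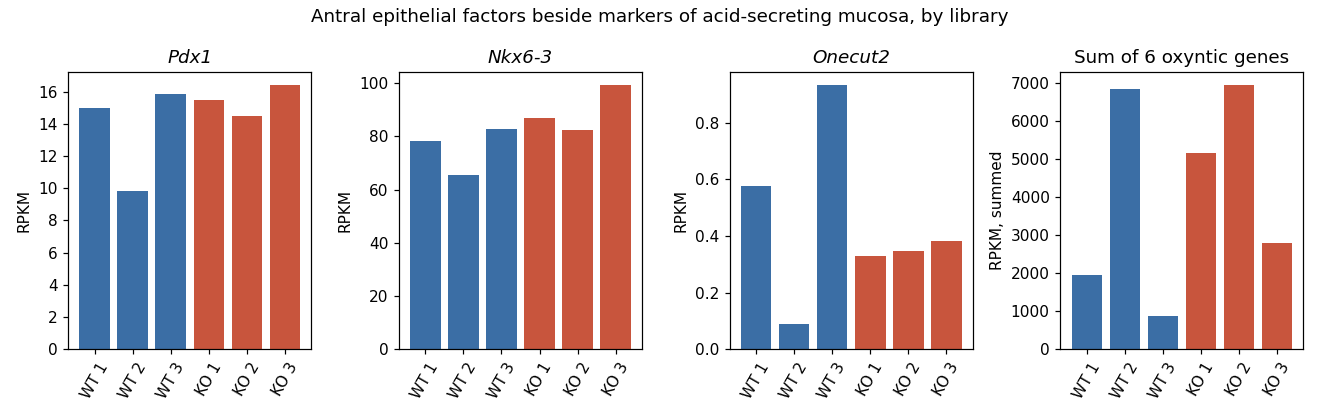
RPKM of Pdx1, Nkx6-3 and Onecut2 and the summed RPKM of 6 oxyntic genes (Atp4a, Atp4b, Gif, Pga5, Chia, Kcne2) by library (bars from 0; blue Sox2 WT, red Sox2 KO). WT2 is lowest for the 3 factors and highest of its group for the oxyntic sum.

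The endocrine genes linked to the antral factors gave no call either. Of 8 tested hormone genes and endocrine transcription factors, 0 passed in limma or voom and 2, Neurog3 and Insm1, had an unadjusted limma p under 0.05, with a median log2 fold change of -0.28, and 3 did not overlap between the groups, as 7.08% of tested genes did not. The number of the list's genes at an unadjusted p under 0.05 was 0 without either WT1 or KO1, 4 without WT2, 3 without WT3, 1 without either KO2 or KO3, 4 with the sex covariate and 5 among the males only. Neurog3, which starts the endocrine lineage, was at 2.37, 1.67 and 1.83 RPKM in WT1, WT2 and WT3 and 1.33, 1.5 and 1.13 RPKM in KO1, KO2 and KO3, with a log2 fold change of -0.43 (SE 0.155, limma adjusted p = 1.00). For Insm1, a zinc finger factor of endocrine precursors, the log2 fold change was -0.44 (SE 0.162); for Pax6, a paired-box factor, it was -0.25 (SE 0.144). Each of these 3 genes was lower in all Sox2 KO libraries than in any Sox2 WT library. Gast, the hormone of antral G cells, had a log2 fold change of 0.04 (SE 0.421).

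Among the mesenchymal factors, Barx1 had the highest level. It encodes the homeodomain factor that gives stomach mesenchyme its identity (chromosome 13, 48662998 to 48666507, plus strand). Barx1 was at 15.5, 15.3 and 12.8 RPKM in WT1, WT2 and WT3 and 13.2, 15.3 and 16.6 RPKM in KO1, KO2 and KO3. Its difference was 0.05 (SE 0.128, 95% interval -0.25 to 0.35, limma adjusted p = 1.00). The coefficient of variation was 10.3% in Sox2 WT and 11.4% in Sox2 KO, beside medians of 12.7% and 13.3% over all tested genes.

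Six2, a homeodomain factor of distal stomach mesenchyme (chromosome 17, 85684277 to 85688274, minus strand), was at 1.77, 1.80 and 1.16 RPKM in WT1, WT2 and WT3 and 1.30, 1.65 and 1.58 RPKM in KO1, KO2 and KO3. The difference for Six2 was -0.04 (SE 0.168, 95% interval -0.43 to 0.36, limma adjusted p = 1.00). As for Barx1, the lowest library was WT3.

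Nkx3-2 and Nkx2-5 were low. Nkx3-2, a factor of the antral and pyloric wall also known as Bapx1 (chromosome 5, 41761483 to 41764501, minus strand), was at 0.896, 0.375 and 0.412 RPKM in WT1, WT2 and WT3 and 0.432, 0.402 and 0.362 RPKM in KO1, KO2 and KO3. A single library, WT1, was above all others, and without it the log2 difference went from -0.21 (SE 0.192, limma adjusted p = 1.00) to 0.01. With a sex covariate, which sets the Sox2 KO libraries against WT1, it was -0.64 (unadjusted p = 0.00283, limma adjusted p = 0.321). Nkx2-5, a factor of the pyloric sphincter and of the heart (chromosome 17, 26838664 to 26845009, minus strand), had 8, 3 and 2 reads in WT1, WT2 and WT3 and 2, 3 and 11 reads in KO1, KO2 and KO3. Its highest levels, 0.218 RPKM in WT1 and 0.213 RPKM in KO3, were in different groups, and the difference was -0.01 (SE 0.142, 95% interval -0.35 to 0.33, limma adjusted p = 1.00).

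Smooth muscle genes were still present after the muscle layer was removed and varied between libraries. The summed RPKM of 8 of them was 734, 566 and 465 in WT1, WT2 and WT3 and 435, 634 and 699 in KO1, KO2 and KO3. WT1 and KO3, the libraries with the highest Nkx2-5, were the highest of their groups for these genes, and Barx1 was lowest in WT3 and KO1, the lowest of theirs. The part of muscle in these levels was not tested. The summed RPKM of 8 fibroblast genes was 434 to 578 in Sox2 WT and 490.4 to 535 in Sox2 KO.

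Other genes that pattern gut mesenchyme were likewise without a call. Of 25 such genes 19 were tested and 0 passed in limma or voom (0 at an unadjusted p under 0.05), with a median log2 fold change of 0.02, against 0.02 over all tested genes, and a range from -0.11 to 0.28. Sfrp1, a secreted Wnt inhibitor downstream of BARX1, was at a mean of 15.9 RPKM with a log2 fold change of 0.03 (SE 0.218). Its relative Sfrp2 was at most 0.118 RPKM. Pitx1, a homeodomain factor, was at a mean of 17.9 RPKM (0.02, SE 0.145), and Nr2f2, encoding COUP-TFII, at 14.4 RPKM (-0.02, SE 0.194). The largest difference of the list was that of Tcf21, a helix-loop-helix factor of visceral mesenchyme, at 19.2, 18.1 and 16.5 RPKM in WT1, WT2 and WT3 and 19.7, 20.1 and 26.4 RPKM in KO1, KO2 and KO3, with a log2 fold change of 0.28 (SE 0.140, limma adjusted p = 1.00).

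Of the 17 paralogs of the members, 6 were tested and 0 passed in limma or voom, with 1 at an unadjusted p under 0.05. The largest difference was that of Nkx6-1, a paralog of Nkx6-3 known from pancreatic beta cells, at 1.11, 0.731 and 0.827 RPKM in WT1, WT2 and WT3 and 0.180, 0.215 and 0.149 RPKM in KO1, KO2 and KO3. The groups did not overlap, and the log2 fold change was -1.02 (SE 0.158, unadjusted p = 2.9e-04, limma adjusted p = 0.189). Nkx6-2, the other paralog, was at a mean of 25.0 RPKM with a log2 fold change of 0.09 (SE 0.134). Onecut3, at a mean of 2.68 RPKM, exceeded Onecut2 and had a log2 fold change of -0.15 (SE 0.197). Onecut1, Gsx1, Gsx2, Nkx2-1 and Nkx2-6 were listed at 0 in all 6 libraries.

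The genes most like each tested member over the 6 libraries were taken by Pearson correlation of log2(RPKM + 0.5). These are a description only, since 9 to 13 of the 4271 or 4272 genes compared reached 0.95 for each member. For Pdx1 they were Mvp (0.98), E2f2 (0.98), Pigr (0.97). For Nkx6-3 they were Mvd (0.99), Acat2 (0.97), Sema4g (0.97). For Barx1 they were Nit2 (0.98), Vwa1 (0.98), Mir425 (0.97), and for Six2 they were Mcam (0.99), Cryab (0.99), Acot2 (0.98).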

How the data were processed

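The deposited values are RPKM, computed by the authors; the submitters' processing notes name CASAVA 1.7, STAR and the build mm10, and the counting tool, annotation and strandedness were not given in these sources. Coordinates are from GENCODE mouse release 21 (GRCm38, which is mm10). Reads were recovered with 1 denominator per library, read from single-exon genes at 1 read, and 1 length per gene; 99.8% of 23538 genes above 0 gave whole numbers within 0.001 reads. The lengths were searched for, so that share is a weak check. Of the lengths with an annotated length beside them, 66.0% were within 10% of it. For Isx the length was 2560 bases against 1789 annotated, and for Cdx2 it was 2258 in both. For Pdx1 it was 4316 against 2156, for Six2 3074 against 2117, and for Barx1 1395 in both. The order of the members by RPKM, such as Barx1 beside Pdx1, depends on these lengths. In KO1 the recovered reads, 29795499, exceeded the denominator, 29793941, and the cause was not tested. Of rows sharing a symbol the highest was kept.

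The test was limma 3.58.1 (R 4.3.3) on log2(RPKM + 0.5) with a trended prior variance, over genes with a mean of at least 0.5 RPKM, with Benjamini-Hochberg adjustment and a threshold of 0.05. Members under this filter were fitted without it, which the planned design held as an alternative. Reads were simulated for this comparison, with 14121 genes fitted. Of the changes of log2 size 2, 97% were recovered, and of those of size 1, 81%. Of the calls, 13.6% were false, and 1.24% among genes of at least 1000 bases, as all members are. Changes were planted only in genes with a mean of at least 0.5 RPKM, with the same dispersion for all genes. The recovered shares therefore do not cover the 6 members under that level. They are not the power of the real fit for the other members either. The simulation held 200 changed genes, while 4 genes passed in the real fit. There, Zg16 at a log2 fold change of 4.06 did not pass (limma adjusted p = 0.127). Neither did Nkx6-1 at -1.02 (limma adjusted p = 0.189). In Sox2 WT the coefficient of variation was 79.7% for Cdx2, 86.7% for Isx and 79.8% for Onecut2. The members and lists were chosen with earlier results of these data known. The rule for named genes takes the members, Sox2, and list genes past the threshold or among the 4 highest in level. It also takes direct paralogs and targets of members, and the 3 genes most correlated with each tested member. Not every gene that the rule takes is named. Other genes, such as those named for low or zero values or for their difference, were chosen after their values were seen. Alternatives changed the pseudocount, filter, scaling, variance model, replicate block, sex, threshold and test, or left out a library.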

Additional observations from a re-analysis of the deposited data

How the results depend on the processing

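Under the 19 alternatives 0 members passed, as in the reported fit. The lists of paralogs, mesenchyme patterning genes, intestinal regulators, ISX targets, endocrine genes and HOX and segment factors gave 0 calls as well. The marker lists were not counted under the alternatives. In 12 alternatives the estimates could move (the others changed the variance, the genes tested or the threshold, or repeated the estimate of the sex covariate); of their 120 values for single members 109 kept their direction and 11 did not, each of a member that had not passed. Barx1 turned to -0.044 both with a sex covariate and among the males only, where Nkx3-2 was at -0.64, Onecut2 at -0.33, Nkx2-5 at -0.25, Six2 at -0.18 and Pdx1 at 0.044. Leaving out 1 library in turn gave log2 differences of -0.037 to 0.14 for Barx1, -0.19 to 0.047 for Six2, -0.13 to 0.11 for Nkx2-5, -0.33 to 0.0072 for Nkx3-2 and -0.54 to 0.10 for Onecut2; the cause was not tested. Isx and Cdx2 kept their direction in these 12, and the limma adjusted p of Cdx2 ran from 0.817 to 1.00. Of all tested genes 4 passed, against 1 with the replicate block, 1 with the sex covariate, 0 among the males only (where limma gave 581 genes an unadjusted p under 0.05), 8 with voom on recovered reads, 8 at an adjusted p under 0.1, and 1 to 8 with 1 library left out (8 without KO1, 7 without WT1, and 1 without either WT3 or KO2). Sox2 was at -3.82 among the males only and did not pass (limma adjusted p = 0.158); fewer libraries enter that fit, and WT1 is assumed to vary like the Sox2 KO libraries. Without WT1, sex and genotype coincide, since Xist was above Ddx3y in WT2 and WT3 and below it in Sox2 KO. Sex-linked genes may thus be among the 7 calls of that fit. The replicate numbers have no stated shared source, and 3 of the 6 libraries correlated best with the library of their own number. For genes with few reads, such as Cdx1 and Nkx2-5, depth limits what can be seen.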

Other observations

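The HOX and segment factor list, which places tissue along the gut, was mostly low. Of its genes, 30 were found, 7 were tested and 0 passed, and 4 were listed at 0 in all 6 libraries. Sox21, a SOX-family factor, was at a mean of 24.1 RPKM, with a log2 fold change of -0.38 (SE 0.247), and Nr2f6, a nuclear receptor, at 29.4 RPKM (0.05, SE 0.122). The highest HOX gene, Hoxa2, was at 0.633, 0.914 and 0.793 RPKM in WT1, WT2 and WT3 and 0.929, 1.17 and 0.925 RPKM in KO1, KO2 and KO3, with a log2 fold change of 0.24 (SE 0.149, limma adjusted p = 1.00).

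Ptf1a, a transcription factor of pancreatic acinar cells, was read in every library, at 0.303, 0.663 and 0.104 RPKM in WT1, WT2 and WT3 and 0.602, 0.662 and 0.313 RPKM in KO1, KO2 and KO3, although Cpa1 was listed at 0. Its lowest library, WT3, was also the one with the lowest oxyntic marker sum.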
